A study of Mus musculus with 3 samples.

Results

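A set of 9 X-linked genes that organise actin filaments, cell shape and contact guidance were examined for chromatin reads recovered with an antibody to LSD1 (Kdm1a), a demethylase that removes methyl groups from histone H3. They were taken by name, as 9 of the 1255 protein-coding and long noncoding genes that RefSeq places on mouse chromosome X, and a gene's window was its body plus 5 kb on both sides (mm10). In MEF the windows held 3437 of 411952 listed sites, in LowK 1420 of 186844 and in MidK 775 of 119257. The group MEF was mouse embryonic fibroblasts at day 0. LowK and MidK were such fibroblasts to which the reprogramming vector SeVdp(fKOSMaB) had been given, both taken at day 20, LowK without Shield1 and MidK with 30 nM Shield1. Shield1 is a small molecule that protects proteins carrying a destabilising domain from degradation. Vector and 20 days of culture thus went together in LowK and MidK, and no vector-free culture of that age was used here. Each group was 1 library, so no difference has a replicate check and none was tested.

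Cells change shape by building, crosslinking and dismantling actin filaments, and receptors at the surface steer this machinery when cells touch their neighbours. In fibroblasts it carries the stress fibres and the migrating cell edge. LSD1 acts at promoters and enhancers, mostly within corepressor complexes, and takes part in switching cells from one identity to another. Among the genes examined, Flna encodes filamin A, which crosslinks filaments, Pls3 encodes plastin 3, which bundles them, and Tmsb4x encodes thymosin beta 4, which binds actin monomers. Diaph2 encodes a formin that elongates filaments, and Msn encodes moesin, which ties them to the plasma membrane. Fhl1 encodes a LIM-domain protein abundant in muscle, and Arhgef6 encodes an exchange factor for Rac and Cdc42. Efnb1 encodes ephrin-B1, a membrane-bound ligand of Eph receptors, and Plxnb3 encodes plexin B3, a semaphorin receptor.

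The files count reads at positions where a variant base was called, so what can be seen of a gene depends on where it carries such positions. The sequences just before the start sites of 5 genes are shown because listed reads fell there, and the capitals mark each listed position. They come from RefSeq (GRCm38.p6, the build called mm10), are 250 bases each, run 5′ to 3′ on the gene's strand and end just before the start. All 1733 listed positions that lay in any of 1223 such RefSeq start windows of chromosome X carried the same base in the RefSeq sequence as in the files' B6 column.
Flna, chrX:74246535-74246784, minus strand: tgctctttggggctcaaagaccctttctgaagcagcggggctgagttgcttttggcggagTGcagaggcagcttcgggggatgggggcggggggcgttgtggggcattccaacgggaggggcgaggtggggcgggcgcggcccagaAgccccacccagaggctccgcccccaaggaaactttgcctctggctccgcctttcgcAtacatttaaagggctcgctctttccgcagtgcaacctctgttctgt
Msn, chrX:96095795-96096044, plus strand: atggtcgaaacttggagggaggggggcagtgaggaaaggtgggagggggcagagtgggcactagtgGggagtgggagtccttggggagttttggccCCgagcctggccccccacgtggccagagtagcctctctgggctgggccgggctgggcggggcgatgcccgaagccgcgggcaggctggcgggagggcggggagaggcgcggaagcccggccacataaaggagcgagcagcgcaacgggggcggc
Tmsb4x, chrX:167209219-167209468, minus strand: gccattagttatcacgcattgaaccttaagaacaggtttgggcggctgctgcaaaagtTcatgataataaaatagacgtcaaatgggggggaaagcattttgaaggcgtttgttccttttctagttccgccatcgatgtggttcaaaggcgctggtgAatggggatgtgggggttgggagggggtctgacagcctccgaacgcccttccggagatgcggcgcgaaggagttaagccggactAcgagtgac
Pls3, chrX:75875183-75875432, minus strand: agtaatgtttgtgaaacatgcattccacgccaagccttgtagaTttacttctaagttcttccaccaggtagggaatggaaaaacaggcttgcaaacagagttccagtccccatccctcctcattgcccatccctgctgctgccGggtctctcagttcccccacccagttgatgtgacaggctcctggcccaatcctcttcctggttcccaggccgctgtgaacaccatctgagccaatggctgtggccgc
Efnb1, chrX:99135811-99136060, plus strand: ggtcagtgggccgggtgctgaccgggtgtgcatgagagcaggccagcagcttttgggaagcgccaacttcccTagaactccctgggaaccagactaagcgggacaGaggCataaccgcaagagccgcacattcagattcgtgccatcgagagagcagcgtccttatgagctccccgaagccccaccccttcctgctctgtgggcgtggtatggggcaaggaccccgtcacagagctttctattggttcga
Positions in these sequences are counted from 1 at the 5′ end, with the B6 base first and the variant base last. In Flna, A147G was read in MEF with 0 B6 and 5 variant reads and in LowK with 2 and 2, A204C in MEF alone with 0 and 4, and the neighbouring T61C and G62A in MidK alone with 3 and 2 each. In Msn, G67A was read in all 3 libraries, with 0 B6 and 2 variant reads in MEF, 2 and 3 in LowK and 0 and 1 in MidK, while C97A and C98T had 1 variant read each in MEF. In Tmsb4x, A242G had 2 variant reads in MEF, and A158G and T59C had 1 each in LowK. In Pls3, G144T had 3 variant reads and T44C had 1, both in MEF. In Efnb1, T73G had 1 variant read in MEF and 1 B6 and 2 variant reads in LowK, and G106C and C110G had 3 variant reads each in MEF. Most positions were thus read in 1 library only, with 5 reads at the most. The same stretches before the RefSeq starts of Plxnb3, Diaph2, Arhgef6 and Fhl1 held no listed single-base site in any library.

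The windows of 250 bases before to 50 after the start lay above the chromosome X median in GC for most of these genes. GC content was 69.0% at Msn, 63.7% at Plxnb3, 62.0% at Flna, 59.7% at Efnb1, 58.7% at Diaph2, 56.0% at the longest Pls3 form and 52.7% at Tmsb4x, against a median of 51.0% over chromosome X. The other Pls3 starts had 57.0% and, at chrX:75843021, 40.3%. Both starts of Fhl1 lay below that median, at 44.0% and 49.3%, and Arhgef6 had 47.3% at its upstream and 63.7% at its downstream start. The Fhl1 starts, at chrX:56779683 and chrX:56786527, lie inside its gene body, which begins at chrX:56731209, so its 5′ end is not covered. CpG dinucleotides numbered 21 at Msn, 20 at Tmsb4x and Diaph2, 19 at Flna and 14 at Efnb1, against a median of 7. They numbered 6, 6 and 3 at the starts of Pls3, 5 and 8 at those of Arhgef6, 4 at Plxnb3 and 3 at each start of Fhl1. Plxnb3 therefore combined a high GC content with few CpGs. The letters GGGCGG, searched on both strands, lay in windows of 5 of the 9 genes (Flna, Msn, Tmsb4x, Pls3 and Diaph2) and in 33.9% of the 1223 start windows of chromosome X. CCACCC lay in windows of 8 of 9, all but Tmsb4x, and in 30.7% of chromosome X windows, and 1 stretch cannot match both motifs in full. TATAAA (14.6% of chromosome X windows) and the CArG box (3.35%) were each found at 1 of the 9 genes, in both cases the muscle LIM gene Fhl1. These matches are descriptions of sequence, and genes with several starts had several chances to match.

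MEF had 883097 listed reads, LowK 295254 and MidK 203350, and the 9 windows held 7201, 2174 and 1205 of them. That was 81.5, 73.6 and 59.3 reads per 10000 listed reads. Depth was low, with a single read at 48.7%, 70.9% and 71.4% of the sites in the windows. Chromatin reads give coverage and not expression, so the labelled cell types could not be checked against marker genes, and no input library was used, so a level is coverage and not enrichment. Fewer bound cells and fewer reads per cell cannot be told apart in such bulk samples. MEF, with the most reads, gives the most precise values, and MidK the least.

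**Figure D1:**
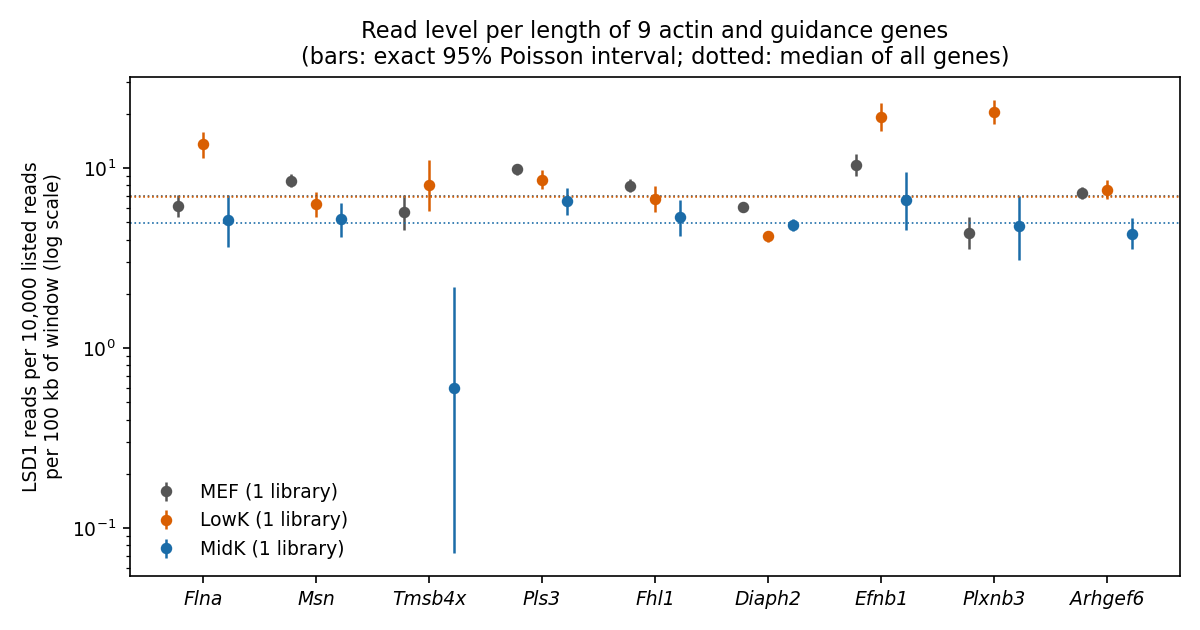
Reads per 10000 listed reads per 100 kb of window (log scale) for each of the 9 genes, 1 library per group; bars are exact 95% Poisson intervals and dotted lines the median of all 1255 genes. In LowK, Plxnb3 at 20.5 and Efnb1 at 19.2 stood above the other genes, and in MidK Tmsb4x at 0.600 lay below them.

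Levels were compared between genes per length, as reads per 10000 listed reads per 100 kb of window, with exact 95% Poisson intervals that cover counting error only. In MEF the levels ran from 10.4 at Efnb1 (9.003 to 11.9) through Pls3 at 9.81, Msn at 8.495, Fhl1 at 7.97, Arhgef6 at 7.24, Flna at 6.16, Diaph2 at 6.04 and Tmsb4x at 5.67 to 4.36 at Plxnb3 (3.55 to 5.31). The median gene lay at 6.96. Every neighbouring pair in this order had overlapping intervals, so the order is not resolved from one gene to the next, although its ends are apart. In LowK, Plxnb3 was at 20.5 (17.4 to 23.95), Efnb1 at 19.2 (16.02 to 22.8) and Flna at 13.5 (11.4 to 15.9), and the median gene at 6.88. The guidance receptor that was lowest of the 9 in MEF, above 21.0% of genes, was thus highest in LowK, above 96.3% of genes. Below them followed Pls3 at 8.61, Tmsb4x at 8.06, Arhgef6 at 7.57, Fhl1 at 6.71 and Msn at 6.28, which did not differ beyond their intervals from one to the next, and then Diaph2, apart from Msn, at 4.16 (3.89 to 4.44). In MidK the levels of 8 genes lay between 4.32 at Arhgef6 and 6.64 at Efnb1, with overlapping intervals from each to the next, around a median gene of 4.91. Tmsb4x was apart from them at 0.600 (0.0727 to 2.17), on 2 reads.

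To compare libraries, a gene's reads per 10000 were divided between 2 libraries and set relative to the median gene, and a gene was called when this ratio was at least 2-fold, the exact Poisson intervals did not overlap and 1 library held at least 30 reads. Without the division by the median gene, the median log2 ratio was 0.09 for LowK over MEF, -0.44 for MidK over MEF and -0.56 for MidK over LowK. A single read spanning several listed positions is counted at each of them, which makes the intervals too narrow, and each ratio was therefore also taken with 1 site per 300 bp.

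The first comparison asked where LSD1 reads differed between day-20 cells without Shield1 and fibroblasts. Of the 9 genes, 2 were called higher in LowK, the plexin gene Plxnb3 and the filamin gene Flna, and 0 were called lower. Over all 1079 genes with enough reads, 7.32% were called higher and 6.3% lower. The median log2 ratio of the 9 genes was -0.02, against 0.01 over all genes, and 4 lay above 1 and 5 below. With 1 site per 300 bp the same 2 genes were called higher, where 3.51% of 941 genes were higher and 1.49% lower.

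Plxnb3 (RefSeq gene 140571, chrX:73756556-73772510, plus strand) had 100 MEF reads, 157 LowK reads and 25 MidK reads, at 60, 71 and 16 sites. Although LowK held fewer reads in all, it held more of this gene's reads than MEF did. Reads per 10000 were 1.13, 5.32 and 1.23, and the ratio of LowK to MEF was 4.42 (95% interval 3.42 to 5.74), the third highest of 1079 genes. With 1 site per 300 bp the ratio was 3.20 (2.22 to 4.63). When each thinned site was counted once whatever its reads, both libraries had 32 sites, the log2 ratio went from 2.14 to 0.89 and the call was lost. At sites listed in both libraries it was 0.90, on 46 reads in LowK and 35 in MEF, and was not called.

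Flna (192176, chrX:74223461-74249854, minus strand) had 198 MEF, 145 LowK and 38 MidK reads, or 2.24, 4.91 and 1.87 per 10000. On this scale, which is not set relative to the median gene, LowK stood above both other libraries, whose intervals overlapped. The ratio of LowK to MEF was 2.06 (1.65 to 2.57), just past the 2-fold threshold, and 2.01 (1.499 to 2.70) with 1 site per 300 bp. It was not called with each thinned site counted once (43 sites in LowK, 48 in MEF, log2 ratio 0.73) or at sites listed in both libraries (log2 ratio 0.16).

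Efnb1 (13641, chrX:99136061-99149022, plus strand), whose product signals in both directions on cell contact, had 210, 130 and 31 reads in MEF, LowK and MidK, or 2.38, 4.40 and 1.52 per 10000. Its ratio of LowK to MEF was 1.74 (1.39 to 2.18), under the 2-fold rule, and 1.35 (0.95 to 1.89) with 1 site per 300 bp. Tmsb4x (19241, chrX:167207093-167213479, minus strand), the shortest of the genes at 6.39 kb, had 82, 39 and 2 reads, or 0.929, 1.32 and 0.0984 per 10000. Its ratio of LowK to MEF was 1.34 (0.89 to 1.98) over the window but was called higher in the gene body alone, with a log2 ratio of 1.35 on 35 reads against 41. For these genes the outcome depended on the part of the locus counted.

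None of the 5 longer genes was called in this comparison. Such calls were rare among longer genes, with 1.65% higher and 2.88% lower of 243 genes of 30 to 120 kb. Over 120 kb the shares were 1.05% and 0% of 95 genes, and under 30 kb 10.0% and 7.98% of 739. Diaph2 (54004, chrX:129749668-130465834, plus strand), a formin gene of 716 kb, had 3872, 892 and 709 reads in MEF, LowK and MidK, or 43.9, 30.2 and 34.9 per 10000. Its LowK to MEF ratio of 0.648 (0.602 to 0.697) had the narrowest interval of the 9 and was below 1 without reaching 2-fold. Msn (17698, chrX:96096045-96168553, plus strand) had 619, 153 and 87 reads and a ratio of 0.696 (0.579 to 0.831), which was 0.931 with 1 site per 300 bp. Pls3 (102866, chrX:75785653-75875182, minus strand) had 862, 253 and 132 reads and a ratio of 0.826 (0.715 to 0.951). Fhl1 (14199, chrX:56731209-56793346, plus strand) had 508, 143 and 78 reads and a ratio of 0.792 (0.653 to 0.955), which crossed to 1.09 with 1 site per 300 bp. Arhgef6 (73341, chrX:57231485-57338758, minus strand) had 750, 262 and 103 reads and a ratio of 0.983 (0.851 to 1.13), the closest of the 9 to the median gene.

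**Figure D2:**
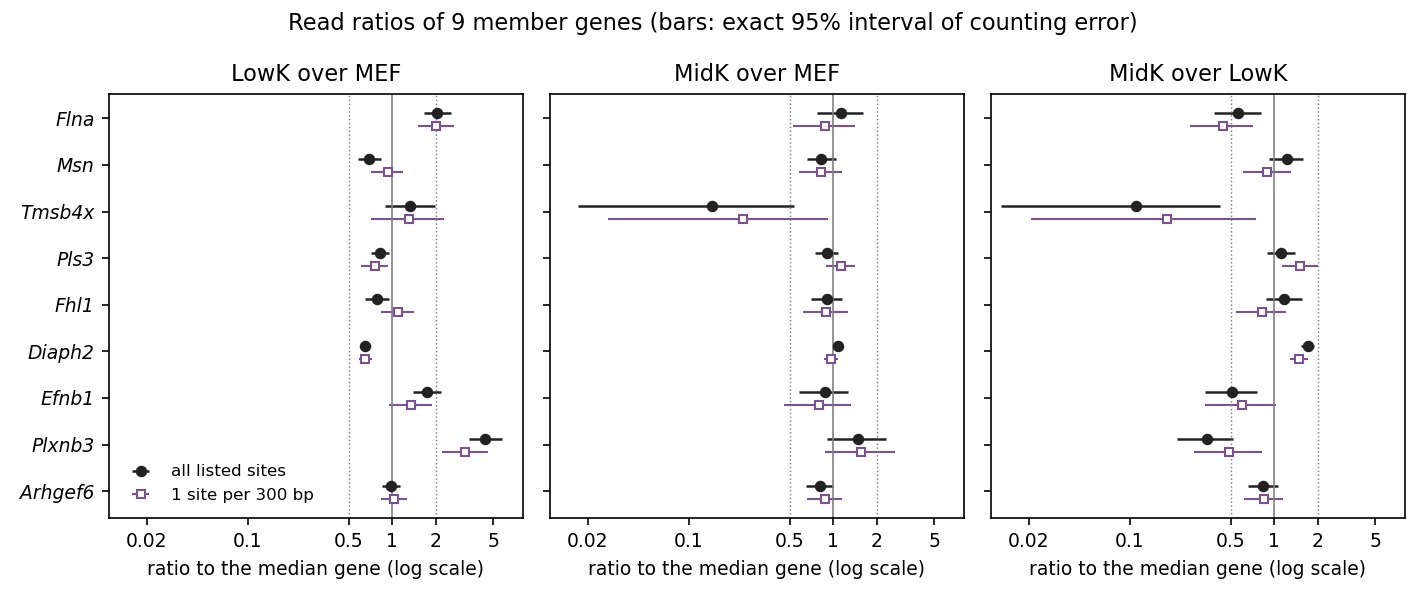
Read ratios of the 9 genes relative to the median gene (log scale) for the 3 library pairs, over all listed sites (filled) and with 1 site per 300 bp (open); bars are exact 95% intervals of counting error and dotted lines mark 2-fold. Plxnb3 lay at 4.42 for LowK over MEF and 0.341 for MidK over LowK, and Tmsb4x at 0.144 and 0.110 in the comparisons of MidK.

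The second comparison set day-20 cells with Shield1 against fibroblasts. Of the 9 genes 1, Tmsb4x, was called lower in MidK, where 9.73% of 1079 genes were lower, and 0 were called higher, where 9.64% were. The monomer-binding gene had 2 reads at 1 site in MidK and 82 at 30 sites in MEF, a ratio of 0.144 (0.017 to 0.537). With 1 site per 300 bp it had 2 reads against 38, a ratio of 0.237 (0.0277 to 0.916), and was not called. None of the 9 genes was called in either direction at that thinning, where 5.01% of 939 genes were higher and 1.06% lower. Plxnb3, at 1.48 (0.911 to 2.31), and Flna, at 1.13 (0.778 to 1.61), had intervals that included 1, and so did Diaph2 at 1.08 (0.996 to 1.17). Efnb1 was at 0.871, Fhl1 at 0.906, Pls3 at 0.904, Msn at 0.829 and Arhgef6 at 0.810 (0.653 to 0.997). The median log2 ratio of the 9 genes was -0.15, against 0.01 over all genes.

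The third comparison set the 2 day-20 libraries, with and without Shield1, against each other. In MidK 2 of the 9 genes were called lower than in LowK, Plxnb3 and Tmsb4x, where 11.8% of 905 genes were lower, and 0 were called higher, where 8.73% were. Plxnb3 had a ratio of 0.341 (0.214 to 0.522) and 0.488 (0.278 to 0.819) with 1 site per 300 bp. Tmsb4x had 2 reads against 39, a ratio of 0.110 (0.0128 to 0.424), and too few reads once thinned. Flna, at 0.561 (0.381 to 0.806), was not called over all sites but was called lower with 1 site per 300 bp, at 0.440 (0.260 to 0.715). At that thinning 8 of the genes had enough reads and 2 were lower, Plxnb3 and Flna, where 3.72% of 565 genes were lower and 3.89% higher. Efnb1 lay at 0.510 (0.333 to 0.759), just inside 2-fold, and was called lower with library totals or in the gene body alone. Diaph2 had the highest ratio of the 9, 1.70 (1.54 to 1.88). Msn at 1.22, Fhl1 at 1.17, Pls3 at 1.12 and Arhgef6 at 0.841 had intervals that included 1, and the median log2 ratio was -0.25 over the 9 genes and 0.00 over all. All 3 comparisons share libraries in pairs, so they are not independent of each other. Under library totals, 21.3% of all genes were lower in MidK than in MEF and 4.45% higher, and 29.2% were lower in MidK than in LowK and 2.65% higher. That scaling moved 6 of the 27 ratios of the 9 genes to the other side of 1, none of them called.

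Where in each locus the reads lay was then described by distance from the RefSeq start site. In Plxnb3 the LowK reads did not centre on the start, and the stretch from 3 to 7 kb past it (chrX:73760103-73764102) held 68 LowK reads at 24 sites, 23 MEF reads at 11 and 7 MidK reads at 3. In Flna the 2 kb around the start (chrX:74245535-74247534) held 44 LowK reads at 12 sites, 38 MEF reads at 12 sites and 11 MidK reads at 3. In Tmsb4x the 2 kb past the start used (chrX:167209218) held 23 reads in LowK, 8 in MEF and 0 in MidK, and the 2 kb before that start 9, 22 and 0. This start lies inside the RefSeq gene body, whose upstream end is at chrX:167213479, so both stretches are within the gene. In Pls3 the first 2 kb held 39 reads in LowK, 33 in MEF and 2 in MidK, while the 2 kb before it held 36 reads in MEF and 0 in both others. The bundling gene, not called over its whole window, thus had LowK reads just past the start and none in the 2 kb just before it. These stretches were chosen after their values were seen and are given without a comparison to other genes.

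**Figure D3:**
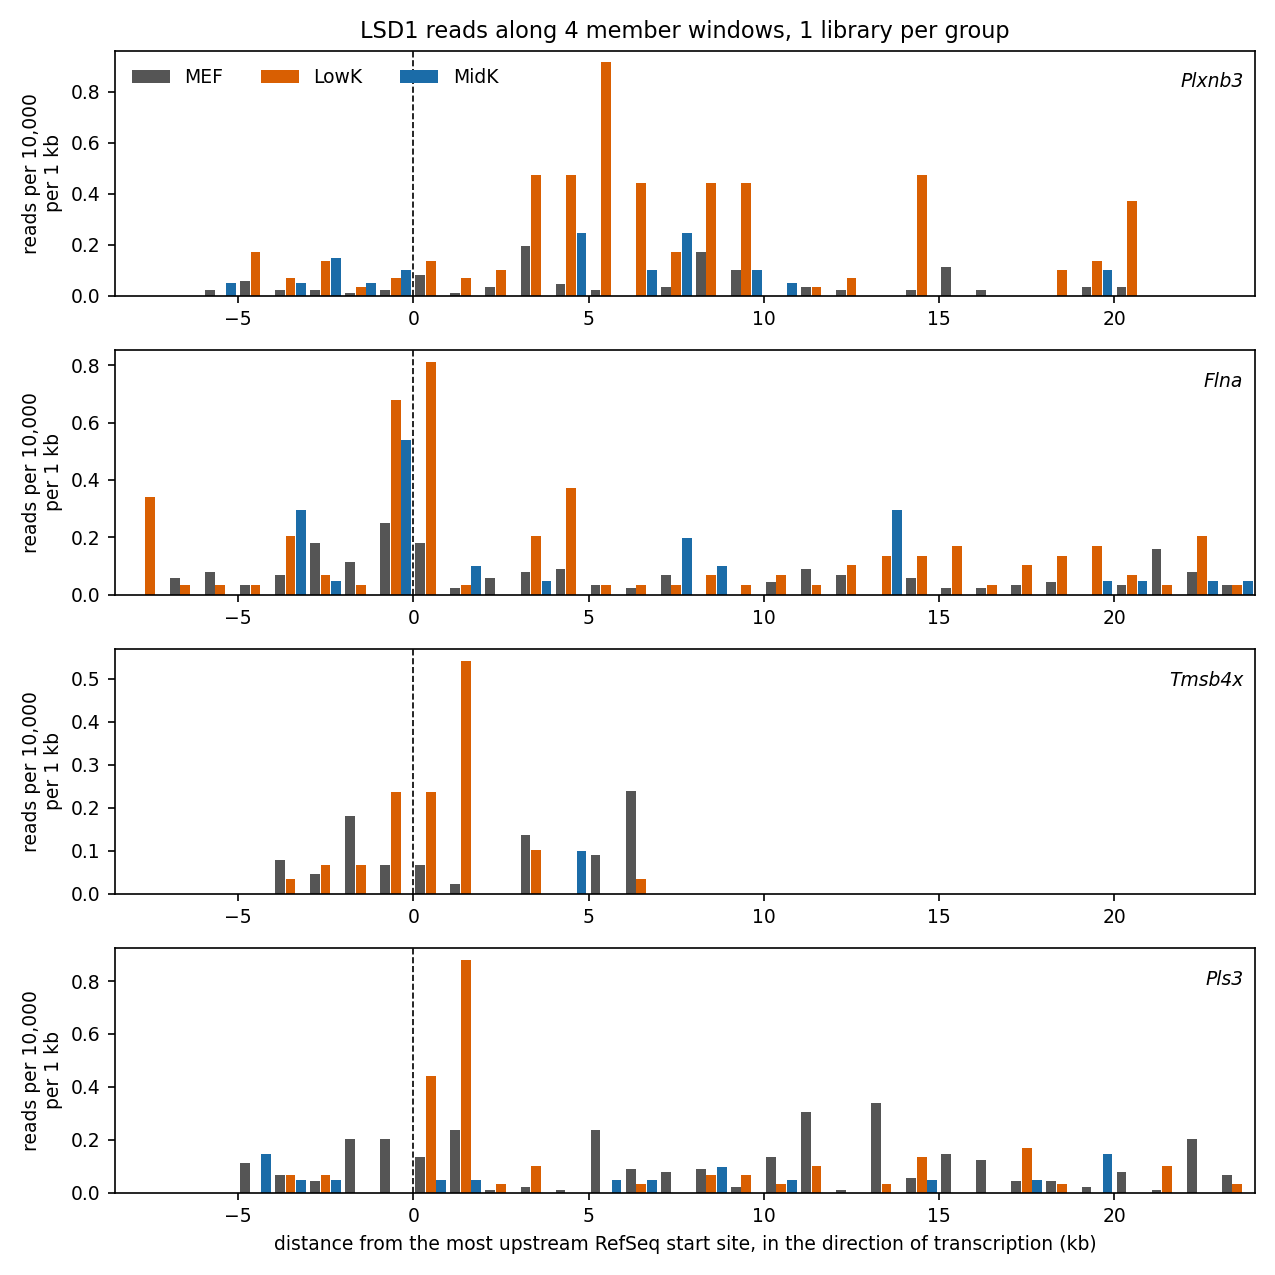
LSD1 reads per 10000 listed reads in 1 kb bins along Plxnb3, Flna, Tmsb4x and Pls3, 1 library per group. Distance is from the most upstream RefSeq start used (dashed line), up to 24 kb past it. For Plxnb3, Flna and Tmsb4x this start lies inside the gene body, so reads drawn before it are partly body reads. The LowK bars are highest within Plxnb3 between 3 and 7 kb and near the starts of Flna, Tmsb4x and Pls3, and MidK has 0 reads within 2 kb of the Tmsb4x start.

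All starts were then counted alike, with 2 kb on both sides of each RefSeq start, on the same scale relative to the median gene. Such reads of the 9 genes numbered 433 (MEF), 259 (LowK) and 53 (MidK), which was 6.01%, 11.9% and 4.40% of their reads. Around the 1220 starts of chromosome X the shares were 3.13%, 5.25% and 3.34% of all listed reads. Both the 9 genes and the chromosome thus had the highest share near starts in LowK. Windows of starts with a GC content at or above the median of 51% held 1.73%, 3.65% and 1.90% of the listed reads in MEF, LowK and MidK, and those below it 1.55%, 1.86% and 1.53%, so LowK stood above the others mostly in the first. The part of base composition in the values of the 9 genes was not tested.

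Near their starts 4 of 8 genes with enough reads, Efnb1, Arhgef6, Tmsb4x and Flna, were called higher in LowK than in MEF, and 0 were called lower. Here 30.7% of 460 genes were called higher and 9.57% lower, so a high count is common near starts. Efnb1 had 28 MEF, 33 LowK and 8 MidK reads, a ratio of LowK to MEF of 3.32 (1.94 to 5.70). Arhgef6 had 31, 34 and 8 reads and a ratio of 3.09 (1.84 to 5.19). Its window as a whole was at the median gene, so the difference was local. The downstream of its 2 starts, at chrX:57326601, had 21, 28 and 8 of these reads and the upstream one 10, 6 and 0. Tmsb4x had 30, 32 and 0 reads and a ratio of 3.001 (1.77 to 5.11), and 82.1% of its LowK reads lay there, against 36.6% in MEF. Flna had 50, 46 and 13 reads and a ratio of 2.59 (1.70 to 3.94). With 1 site per 300 bp these 4 ratios were 4.33, 2.58, 4.64 and 2.97. They rested on 21 LowK against 12 MEF reads, 25 against 24, 15 against 8 and 24 against 20, all under the 30 reads needed for a call.

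The other genes were not called near their starts in that pair of libraries. Pls3 had 97, 47 and 4 reads, at 1.36 (0.941 to 1.95), Msn 61, 24 and 5, at 1.11, Diaph2 45, 17 and 6, at 1.06, and Fhl1 80, 17 and 6, at 0.598 (0.332 to 1.02). With 1 site per 300 bp these ratios were 0.766, 1.98, 1.65 and 0.512. The inner Pls3 start, at chrX:75843021, had 28, 8 and 2 of its reads. The Fhl1 values are for its 2 starts inside the gene body, and the 5′ end of that gene was not counted as a start. Plxnb3, with the highest ratio over its window, had only 11, 9 and 3 reads near its start, too few for the rule. In MidK against MEF, 1 of 7 genes was called lower near its start, Pls3 at 0.243 (0.0650 to 0.643), and 0 higher, where 12.2% of 435 genes were lower and 12.9% higher. In MidK against LowK, 2 of 5 were called lower, Pls3 at 0.182 (0.0476 to 0.498) and Tmsb4x, and 0 higher, where 35.8% of 173 genes were lower and 5.78% higher. With 1 site per 300 bp Pls3 was at 0.214 (0.0251 to 0.824) against MEF, on 2 reads against 42. Against LowK it was then at 0.28 (0.0307 to 1.24), on 2 reads against 13, and Tmsb4x had 0 against 15. Both pairs of counts against LowK were under the 30 reads needed for a call. The 0 MidK reads near the Tmsb4x start allow up to 3 counts, or 0.148 per 10000, as a one-sided limit, and the exact Poisson interval, which is two-sided, ends at 0.181, against 1.08 in LowK and 0.340 in MEF. Over the 9 genes pooled, the ratio near starts was 1.68 (1.44 to 1.97) for LowK over MEF, 0.722 (0.532 to 0.962) for MidK over MEF and 0.438 (0.319 to 0.590) for MidK over LowK. Pooled in the same way over all 1046 genes with a start, where a read in the windows of several genes counts for each, the ratios were 1.61, 1.45 and 0.918. Both pooled ratios of MidK thus lay lower over the 9 genes than over all genes pooled. They lay close to the median of single genes with enough reads near their starts, which was 0.715 and 0.475. That median was 1.45 for LowK over MEF. With 1 site per 300 bp the pooled ratios of the 9 genes were 1.87 (1.49 to 2.36), 0.890 (0.601 to 1.28) and 0.476 (0.3185 to 0.695). At that thinning the interval for MidK over MEF included 1.

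**Figure D4:**
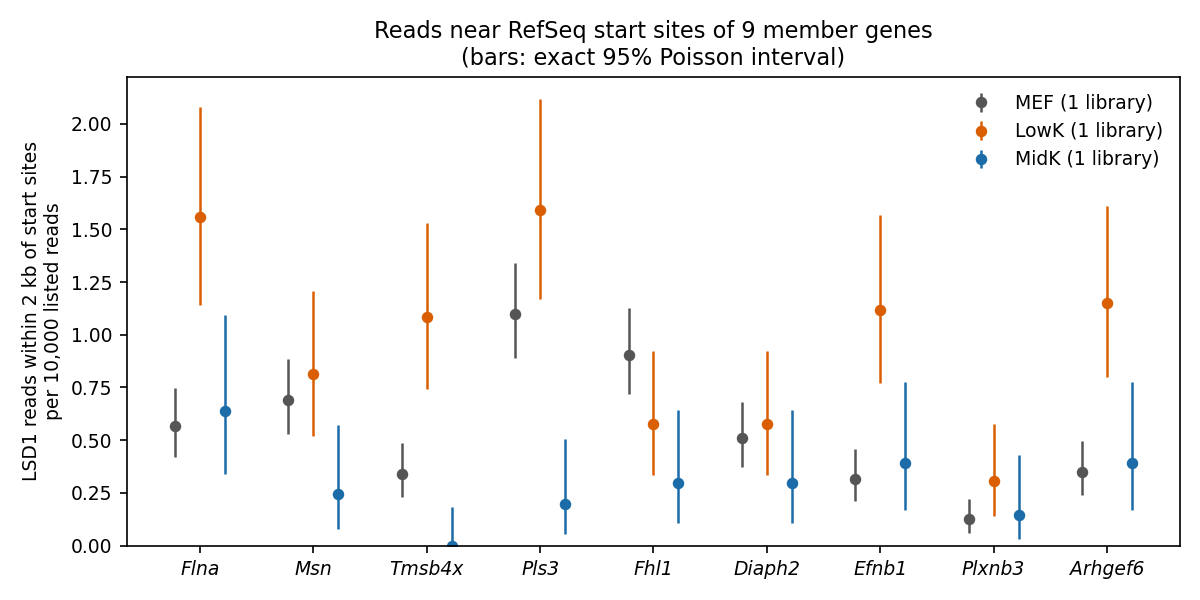
LSD1 reads within 2 kb of RefSeq start sites per 10000 listed reads, by gene and group, 1 library each; bars are exact 95% Poisson intervals. For Efnb1, Arhgef6, Tmsb4x and Flna the LowK intervals lie above those of MEF, and Tmsb4x has 0 reads in MidK.

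Gene length, site composition and neighbouring genes were then set beside these ratios. The 4 genes under 30 kb (Flna, Tmsb4x, Efnb1 and Plxnb3) had a median log2 ratio of 0.92 for LowK over MEF, the 4 of 30 to 120 kb (Msn, Pls3, Fhl1 and Arhgef6) -0.31 and Diaph2 -0.63. Over all genes of those lengths the medians were 0.15, -0.09 and -0.28, in the same order. For MidK over LowK the medians of the same genes were -1.26, 0.19 and 0.77, against -0.20, 0.17 and 0.43 over all genes. The share of G or C among the B6 bases of listed sites was 55.8% at Plxnb3 and 57.4% at Efnb1, above 80.2% and 86.5% of genes, but 34.7% at Tmsb4x, against a median of 50.7%. Genes with such a share of at least 54.8%, as both have, had a median LowK to MEF ratio of 1.14, and those of at most 48.0% had 0.964. The part of length and composition in the ratios of the 9 genes was not tested. Windows overlapped the bodies of other protein-coding or long noncoding genes at Plxnb3 (Srpk3, with 10, 18 and 2 of the window's reads in MEF, LowK and MidK), Fhl1 (Map7d3, 23, 21 and 2), Msn (the noncoding Gm30427 within it, 33, 3 and 4) and Flna (Emd, 2, 0 and 0). Without the bodies of neighbouring genes no call among the 9 genes changed, and Plxnb3 kept a log2 ratio of 2.12 for LowK over MEF.

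The reads were also split by allele, B6 against the variant base, whose strain is not given in the sources used here. A position without a variant read was not listed, which raises these shares in all genes and libraries. In the 9 windows 86.7% of MEF reads, 90.9% of LowK reads and 86.1% of MidK reads carried the variant base, against 85.8%, 90.2% and 81.1% on chromosome X. Plxnb3 went the other way from the other 8 genes, as the one with a lower variant share in LowK than in MEF. A listed site with a single read can only carry the variant base. The percentage of such sites fell from 58.3% in MEF to 45.1% in LowK at Plxnb3 and rose in the other 8 genes. The part of single-read sites in the variant shares was not tested. B6 reads made up 4 of its 100 MEF reads, 32 of its 157 LowK reads and 4 of its 25 MidK reads. The variant share was 96.0% (95% Clopper-Pearson interval 90.1% to 98.9%) in MEF and 79.6% (72.5% to 85.6%) in LowK, with no overlap, and 84.0% in MidK. Sites with a B6 read numbered 3 of 60, 22 of 71 and 2 of 16, and the stretch 3 to 7 kb past the start held 20 of the 32 LowK B6 reads.

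In the other genes the variant share in LowK ran from 88.3% at Flna to 96.1% at Msn, and in MEF from 80.5% at Tmsb4x to 88.0% at Diaph2. In MidK Pls3 had 75% (66.7% to 82.1%), while all 31 reads of Efnb1 carried the variant base (88.8% to 100%). Sites read with both alleles gave 59.6%, 60.6% and 54.4% variant reads in MEF, LowK and MidK over the 9 genes, against 59.9%, 59.0% and 52.2% on chromosome X. A stricter measure took positions of 5 to 20 reads where B6 and variant each had 2 or more, 1 per 300 bp, and asked how often the variant base led. In MEF it led at 49 of 112 untied positions, or 43.8% (34.4% to 53.4%). The LowK count was 10 of 13, or 76.9% (46.2% to 94.96%), and the MidK count 7 of 20, or 35.0% (15.4% to 59.2%). On chromosome X the shares were 48.5%, 45.3% and 23.3%. The intervals of the 9 genes are wide and those of the 3 libraries overlap, and differences between libraries were not tested. In LowK the interval began just above the chromosome X share, on 13 positions, while those of MEF and MidK included theirs. The LowK interval began below that share with every site (44.0%), in the gene body alone (42.8%) and at sites that MEF lists (22.3%). It began above that share with 1 read of each allele (49.2%) and a reliability of at least 20 (46.2%). The chromosome X share was not taken again under these settings. Plxnb3 had 0 such sites in MEF and 1 each in LowK and MidK, so this measure says nothing on it.

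**Figure D5:**
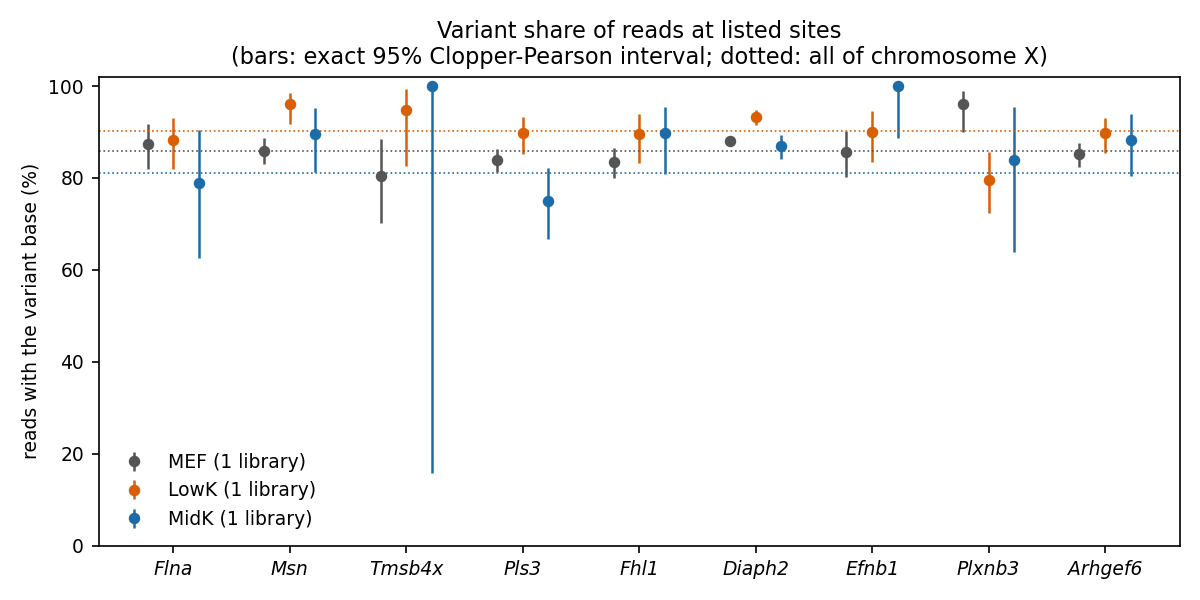
Percent of reads with the variant base at listed sites, by gene and group, 1 library each; bars are exact 95% Clopper-Pearson intervals and dotted lines the value for all of chromosome X. Plxnb3 lies at 96.0% in MEF and 79.6% in LowK with intervals apart, and Tmsb4x in MidK rests on 2 reads. The intervals are too narrow where 1 read spans several listed sites.

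Few positions were listed in more than 1 library. Of the LowK sites in the 9 windows, 310 were also listed in MEF, 21.8% of the LowK and 9.02% of the MEF sites, close to 20.3% and 9.20% on chromosome X. MidK shared 132 sites with MEF (17.0% of MidK, 3.84% of MEF sites) and 78 with LowK (10.1% and 5.49%), and 16 were listed in all 3. Plxnb3 had 19 sites in common between LowK and MEF, Flna 20 and Tmsb4x 4, and Tmsb4x shared 0 with MidK. The ratios above therefore compare mostly different positions of the same genes.

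Other X-linked genes of guidance, contact and the cytoskeleton were read beside the 9. Among 8 further guidance and contact genes, Slitrk4, encoding a neuronal membrane protein, was called higher in LowK than in MEF, at 2.12 on 64 reads against 85, but not once thinned, and no other call was made. Their median log2 ratios were 0.32, -0.16 and -0.37 in the 3 comparisons. Plxna3, the other X-linked plexin of the list, had 188, 80 and 21 reads and a LowK to MEF ratio of 1.197 (0.910 to 1.56). Its interval lay below that of Plxnb3, so the 2 plexin genes were apart in this pair of libraries. The adhesion gene L1cam had 267, 137 and 33 reads and a ratio of 1.44. Of 9 microtubule genes, Mid1 and Vbp1 were called higher in MidK than in MEF, at 2.28 and 2.04, and not once thinned, at 1.09 and 1.19. Both were also called higher in MidK than in LowK, at 2.88 and 2.03, and not once thinned, at 1.44 and 1.68. Of 6 X-linked stem cell genes 4 were called higher in LowK than in MEF and 0 lower, of 6 fibroblast and matrix genes 1 higher and 1 lower, and of 6 blood and 6 neural genes 0 in either direction. In MidK against MEF the stem cell genes had 3 higher and 0 lower, the fibroblast genes 0 and 2, the blood genes 0 and 0 and the neural genes 0 and 1. Between MidK and LowK they had 1 and 1, 0 and 1, 0 and 0 and 0 and 0. Over all genes 7.32% were higher and 6.3% lower in LowK than in MEF, 9.64% and 9.73% in MidK than in MEF and 8.73% and 11.8% in MidK than in LowK. With 1 site per 300 bp, Dusp9, Sox3 and Plp2 were still called higher in LowK than in MEF and Itm2a lower in MidK than in MEF, and the other calls on these marker lists were lost.

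The genes most like the called ones were sought by the distance between pairs of log2 ratios to MEF, 1 for LowK and 1 for MidK, over 972 genes with at least 100 reads in all. Nearest to Plxnb3 were Gm39494 (ratios 4.198 and 1.498), Gm34301 (4.74 and 1.33) and the chemokine receptor gene Cxcr3 (3.79 and 1.45). Nearest to Flna were Gm39550 (2.06 and 1.15), Tex28 (1.99 and 1.19) and Mid1ip1 (2.03 and 1.21). Nearest to Tmsb4x were Dmrtc1a (1.41 and 0.132), Gm14827 (1.62 and 0.148) and Gm14725 (1.12 and 0.134), with 3, 2 and 2 reads in MidK.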

How the data were processed

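Libraries of LSD1-bound chromatin from 3 mouse samples were grouped by their titles, and chromosome X is what the files used here hold. The submitters' processing notes name BWA as a tool and mm10 as the build. Variants were called with bcftools mpileup and read by allele, per the labels of the series' design. For versions, filters and duplicates, nothing is given in the sources used here. The deposited counts are whole reads with the B6 base and with the variant base at each position, per the file headers. A reliability score per variant, also deposited by the authors, served in 1 alternative.

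From the single-base positions, B6 and variant reads were summed per gene window (gene body plus 5 kb on both sides). Insertions and deletions were left out, at 6.97% of MEF, 6.13% of LowK and 5.56% of MidK entries. Gene positions, starts and sequences came from RefSeq tables of GRCm38.p6, which give no exons here, so sites were not placed in exons or introns. Ratios of reads per 10000 were set relative to the median gene among those reaching 30 reads in either library (1079 genes in both comparisons with MEF, 905 in MidK against LowK), with exact 95% conditional binomial intervals, and single levels have exact Poisson intervals. A gene was called at 2-fold or more with Poisson intervals apart and at least 30 reads in 1 of both libraries. With 1 library per group no p-value was computed. Intervals cover counting error only. The reads behind a gene set the precision, from 2 reads at Tmsb4x in MidK to 3872 at Diaph2 in MEF.

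The 9 genes, the lists of other genes and the alternatives were chosen with earlier results of these data known, so patterns among them are not independent evidence. Windows of 2 kb on both sides of start sites and windows without neighbouring genes were added after seeing the data. All 9 genes were named, with the genes overlapping their windows, listed pathway genes past the call rule, and the 3 genes nearest in ratio to each called gene, except that 1 list of pathway genes is not reported here. Alternatives were library totals, 1 site per 300 bp with all reads or counted once, sites listed in both libraries, the deepest 1% of sites removed, reliability of at least 20, the gene body only, no read minimum and 1.5-fold, and for the allele measure every site, 1 read of each allele and sites that MEF lists. Scripts were tested on simulated data. Python 3.11.15, pandas 2.3.3, numpy 2.4.6, scipy 1.17.1 and matplotlib 3.10.9 were used.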

Additional observations from a re-analysis of the deposited data

Results flagged for a closer look

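Insertion and deletion entries, which no comparison above used, were also present in the windows of the 9 genes and were picked out as signal outside the main measurement. They numbered 277 in MEF, 107 in LowK and 52 in MidK, with 641, 161 and 86 reads. Per 100 single-base sites that was 8.06, 7.54 and 6.71 entries, against 7.50, 6.53 and 5.89 on all of chromosome X. No group had enough samples for a check of outlying libraries.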

How the results depend on the processing

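No paired analysis was possible because each group holds 1 library. For the same reason no replicate could be left out. Of the 9 genes, the number higher in LowK than in MEF was 2 over all sites. It was 3 in the gene body alone (Tmsb4x added), where 10.2% of 816 genes were higher. With Efnb1 added it was also 3 under the reliability minimum (16.4% of 1013 genes) and at 1.5-fold (17.6% of 1079). It was 0 with each thinned site counted once (0% of 556 genes) and at sites listed in both libraries (1.97% of 456). The number lower in LowK went from 0 to 1 with a reliability of at least 20 (Msn) and at 1.5-fold (Diaph2). Over all genes 12.1% and 12.5% were lower under these settings. The number lower in MidK than in MEF went from 1 to 0 with 1 site per 300 bp (1.06% of genes lower) and with each site counted once (0%). It was also 0 at sites listed in both libraries (1.09%) and with the reliability minimum (15.35%). The number higher went from 0 to 1 with the reliability minimum (Flna), where 16.6% of genes were higher. The number lower in MidK than in LowK went from 2 to 4 with library totals (29.2% of genes lower) and at 1.5-fold (15.6%). There Flna and Efnb1 joined Plxnb3 and Tmsb4x. It went to 1 with the reliability minimum (Plxnb3), where 17.4% of genes were lower. With each site counted once (0.563%) and at sites listed in both libraries (2.44%) it was 0. It was 3 in the gene body alone (14.4%) and with no read minimum (11.3%). The number higher in MidK than in LowK went from 0 to 2 with the reliability minimum (Msn and Diaph2) and to 1 at 1.5-fold (Diaph2). Over all genes 18.0% and 18.7% were higher under these settings. Fewer genes were tested where sites were counted once or had to be shared, and the other causes were not tested. No called ratio changed sign under any alternative. Removing the deepest 1% of sites or the bodies of neighbouring genes changed no call among the 27 ratios. The share of sites with a variant majority stayed within its interval under every alternative run. Over all genes, counting sites once left 0 genes higher and 1 lower in LowK than in MEF, where 79 and 68 were called over all sites. The reliability minimum gave 166 and 123, 1.5-fold 190 and 135, and sites listed in both libraries 9 and 1. For MidK over MEF, with 104 higher and 105 lower, these settings gave 0 and 0, 168 and 155, 181 and 152, and 5 and 2, and library totals 48 and 230. For MidK over LowK, with 79 and 107, they gave 0 and 2, 113 and 109, 169 and 141, and 2 and 2, and library totals 24 and 264. Depth limits Tmsb4x most, since 2 reads carry its MidK values.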
